A study of Mus musculus with 6 samples.

Results

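Transcripts of 7 hormone receptor genes and of the growth factor gene Igf1 were followed in the mouse ovary: the gonadotropin receptors Fshr and Lhcgr, the prolactin receptor Prlr, the growth hormone receptor Ghr, Igf1 with its receptor Igf1r, the insulin receptor Insr and the progesterone receptor Pgr. They were taken by symbol, and all 8 were found among the 47205 genes of the expression table. Whole ovaries were collected at 9 days post partum (dpp), 3 libraries being of wild-type (WT) ovaries and 3 of ovaries in which the splicing factor gene Srsf1 was knocked out in granulosa cells (conditional knockout, cKO). The sources used here do not give the Cre driver, the strain or whether ovaries were pooled, and the labels do not say that the libraries of a group came from separate mice, so that the p-values measure only the spread between these libraries. Levels are FPKM (fragments divided by gene length in kilobases and by a scaling factor for each library), and a library held 16840923 to 18721895 counted reads.

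Follicle-stimulating hormone (FSH) acts on granulosa cells through FSHR, and luteinizing hormone acts through LHCGR, which in immature follicles is found mainly on theca and interstitial cells. Both receptors couple to the G protein that raises cyclic AMP. Prolactin and growth hormone act through cytokine receptors that work with the kinase JAK2 and STAT5. IGF1, made by granulosa cells of growing mouse follicles, acts through the receptor tyrosine kinase IGF1R and amplifies the response of granulosa cells to FSH. The progesterone receptor is a nuclear receptor best known from the preovulatory follicle, where the luteinizing hormone surge induces it.

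Fshr and Lhcgr both lie on the minus strand of chromosome 17. The stretch before the start site of each is shown because these are the pair of gonadotropin receptors, and because the Fshr window holds the E-box described for this gene. The windows are 250 bases long, end at the base before the start site, and come from RefSeq on build GRCm38.p6, which is not the build of the expression table. Fshr lies at chr17:89200676-89200925 and Lhcgr at chr17:88792015-88792264, both on the minus strand. Capitals mark the E-box CACGTG, the letters TCAAGG found in sites of the NR5A nuclear receptors, and the GC box GGGCGG, searched on both strands and without overlaps between them here.
Fshr: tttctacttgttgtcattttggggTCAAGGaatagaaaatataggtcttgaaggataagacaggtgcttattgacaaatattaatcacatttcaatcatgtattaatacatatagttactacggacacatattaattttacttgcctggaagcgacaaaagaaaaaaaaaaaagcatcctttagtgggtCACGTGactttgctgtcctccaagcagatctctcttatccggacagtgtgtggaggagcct
Lhcgr: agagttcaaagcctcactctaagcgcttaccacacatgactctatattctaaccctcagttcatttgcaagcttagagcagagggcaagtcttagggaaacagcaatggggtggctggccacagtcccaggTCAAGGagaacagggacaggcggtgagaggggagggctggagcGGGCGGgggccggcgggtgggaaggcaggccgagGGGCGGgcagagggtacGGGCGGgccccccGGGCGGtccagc
The Fshr window held 1 E-box, beginning 61 bases before the start site, 1 TCAAGG and no GC box. The Lhcgr window held 1 TCAAGG and 4 GC boxes and no E-box. Over 32851 RefSeq promoter windows of the same length, 6.02% held CACGTG, 12.5% TCAAGG and 32.7% GGGCGG. Of the 8 genes, 7 had a window in the table (10 start sites), and among them only Fshr held the E-box, while Fshr, Lhcgr and Igf1 held TCAAGG. A match of letters is a description of the sequence and not a measured binding site.

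Srsf1 itself stood at 39.9, 49.6 and 46.3 FPKM in WT replicates 1, 2 and 3 and at 20.3, 26.9 and 21.4 FPKM in cKO, and the groups did not overlap. Granulosa, oocyte, stromal and endothelial markers were present in all libraries, and of the 5 adipocyte markers Lep was at 0 in all libraries, Adipoq, Cidec and Fabp4 reached at most 0.292 FPKM, and Plin1 stood at 1.28 to 4.05 FPKM. Macrophage, interferon, ovarian surface, endothelial and oviduct marker sums were higher in every cKO library than in WT. The oviduct sum, 20.2 to 43.4 FPKM, was mostly Epcam, at 14.9 to 31.1 FPKM. The oviduct and ciliated cell genes Ovgp1 and Foxj1 overlapped between groups. cKO replicate 1 had an interferon marker sum of 215 FPKM against 13.4 and 33.4 in the other cKO libraries and 3.37 to 5.86 in WT. Long and short genes also differed between libraries in opposite ways. For the 1875 tested genes of at least 8 kb, the median deviation from the 6-library mean was -0.15 on the log2 scale in cKO replicate 2 and 0.12 in WT replicate 2. For the 4049 genes under 2 kb it was 0.14 and -0.14 in the same libraries. Of the 8 genes, 5 are at least 8 kb long: Prlr, Igf1, Igf1r, Insr and Pgr.

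Of the 8 genes, 6 averaged 1 FPKM or more across the libraries and were tested, and Lhcgr and Pgr lay below it. By limma on log2(FPKM + 1), with p-values adjusted over all 14714 genes tested, 0 of the 6 were past the threshold of 0.05, where 0.0204% of all tested genes were (0.00680% higher and 0.0136% lower in cKO). At an unadjusted p under 0.05 the test found 1 of the 6, Fshr, where 6.34% of all tested genes passed. Fshr was also the only 1 of the 6 whose WT and cKO libraries did not overlap, against 12.3% of all tested genes. A single gene of 6 is too few to read against these shares. Srsf1, the knocked-out gene, had a log2 difference of -0.96 (limma unadjusted p = 0.000185, adjusted p = 0.32) and was not past the threshold either. A gene that was not past it may therefore still differ.

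**Figure D1:**
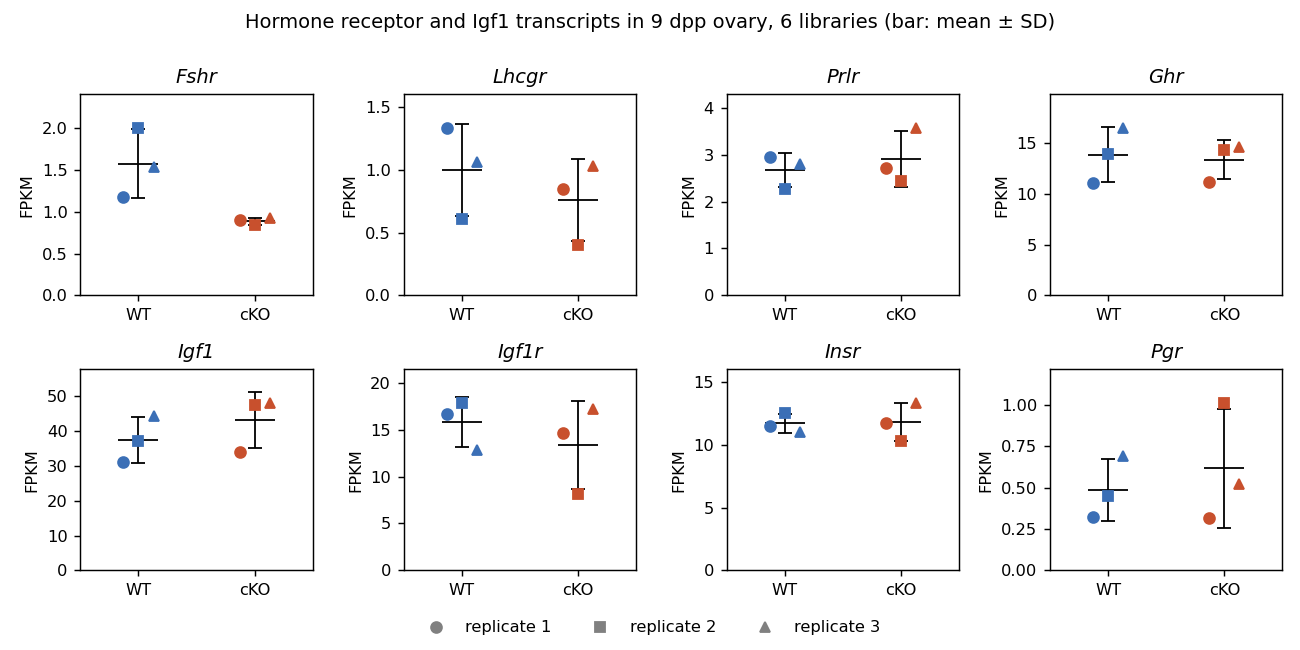
FPKM of the 8 genes in each library, with a separate vertical axis from 0 for each gene. Points are libraries, marked by replicate number, and bars are the mean ± SD of 3 libraries. The WT and cKO points of Fshr do not overlap, and those of the other 7 genes do.

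**Figure D2:**
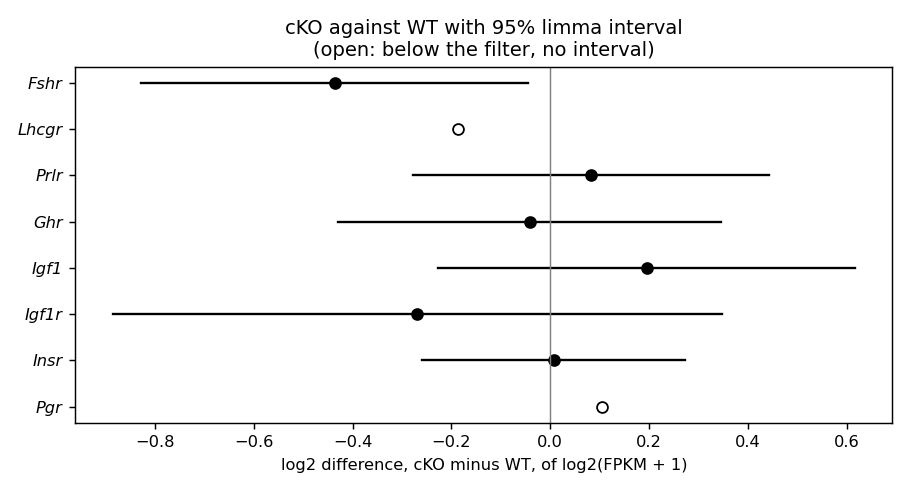
Log2 difference, cKO minus WT, of the 8 genes on the scale of log2(FPKM + 1). Lines are 95% intervals from limma, and the open points, Lhcgr and Pgr, lay below the filter and have none. The interval of Fshr, -0.83 to -0.05, lies below 0 without adjustment for the 14714 genes tested, and the other 5 intervals include 0.

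The levels spanned a wide range. Igf1 was the most abundant, at 31.1 to 48.2 FPKM over the 6 libraries, and its range lay above that of every other gene of the group. Igf1r (8.18 to 17.9 FPKM), Ghr (11.1 to 16.6 FPKM) and Insr (10.3 to 13.4 FPKM) followed with overlapping ranges, and their order among themselves is not settled by these libraries. Prlr lay below them at 2.27 to 3.57 FPKM. Fshr (0.838 to 2.004 FPKM), Lhcgr (0.399 to 1.33 FPKM) and Pgr (0.315 to 1.01 FPKM) were the lowest, again with overlapping neighbours. The order also depends on the length used. The table gives Pgr a length of 27375 bases, 3.20 times the 8546 merged exon bases in GENCODE M21, and Ghr a length of 4518 bases against 9053. When the reads behind the table were divided by GENCODE lengths, the mean of Pgr was 1.77 FPKM, above Fshr at 1.23. That of Ghr was 6.81 FPKM, below Insr at 8.06. The reads were not recounted over the GENCODE exons, so these values show the effect of the divisor only. The length is the same in all 6 libraries, but it sets the FPKM on which the filter and the pseudocount act. With the same reads divided by the GENCODE length, the mean of Pgr would be above the filter. Genes on the opposite strand overlap Prlr, Ghr and Igf1 (1 each) and Igf1r (2), at no more than 0.559 FPKM, and the sources used here do not say whether reads were counted by strand.

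Among the gonadotropin receptors, Fshr (chromosome 17, 89292380 to 89508103 in the table, minus strand) stood at 1.18, 2.004 and 1.54 FPKM in WT replicates 1, 2 and 3. In cKO it stood at 0.896, 0.838 and 0.924 FPKM. All 3 cKO libraries were lower than the lowest WT library, and the cKO values lay close together while the WT values were spread out. Fshr averaged 1.57 ± 0.413 FPKM in the WT libraries and 0.886 ± 0.0437 FPKM in the cKO libraries (mean ± SD, 3 libraries a group, as for every mean given here), a ratio of 0.563. The log2 difference was -0.44 (SE 0.166, 95% interval -0.83 to -0.05, limma unadjusted p = 0.0336, adjusted p = 0.768). For Fshr by itself, exact permutation of the libraries (two-sided) returned p = 0.1, and 3 libraries a group allow no lower value. The pseudocount shrinks differences of genes this low, and with a pseudocount of 0.1 the log2 difference was -0.74 (limma adjusted p = 0.764).

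Fshr rested on few reads, 48, 86 and 67 in WT and 40, 38 and 40 in cKO. The exact Poisson 95% interval of WT replicate 1, 0.871 to 1.57 FPKM, held 2 of the 3 cKO values, those of replicates 1 and 3, whereas the intervals of WT replicate 2 (1.60 to 2.48 FPKM) and WT replicate 3 (1.19 to 1.95 FPKM) held none. These intervals cover counting error only. The mean of the cKO libraries was below the filter of 1 FPKM, and the gene passed it through the WT libraries. Without a filter the log2 difference was the same and the limma adjusted p was 0.845. Leaving out WT replicate 2, the highest library, brought the log2 difference to -0.32 (limma unadjusted p = 0.115).

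Fshr is a granulosa cell transcript, and the granulosa cell markers were low in cKO as well. Of the 8 markers, all tested, 7 had a lower mean log2 value in cKO and 1 a higher one, with a median log2 difference of -0.51 against 0.00 over all tested genes. None passed the threshold, and 5, all lower in cKO, had an unadjusted limma p under 0.05, where 2.70% of all tested genes were lower at that p. Of these, Cyp19a1 had a cKO mean of 0.773 FPKM and passed the filter through the WT libraries. The markers were chosen with earlier results of these data known, so the share over all genes is given for scale only. The mean log2(FPKM + 1) of the 8 markers was 5.89, 5.96 and 5.72 in WT and 5.56, 5.33 and 5.401 in cKO, without overlap. Foxl2, whose product keeps granulosa cells from taking on testicular fate, stood at 138, 224 and 204 FPKM in WT and 132, 124 and 105 in cKO. It was also the listed gene whose profile over the 6 libraries was most like that of Fshr (Pearson r = 0.94, the highest of 115 genes), followed by Nr5a2 (r = 0.92). The 6 libraries are of 2 genotypes, and r includes the difference between them.

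Set against these markers, the Fshr values of the genotypes overlapped. Its log2(FPKM + 1) minus the marker mean was -4.76, -4.37 and -4.37 in WT and -4.64, -4.45 and -4.46 in cKO. The difference of the group means was -0.02 (exact two-sided permutation p = 1). With a pseudocount of 0.1, which shrinks Fshr less, it was -0.25 (exact permutation p = 0.4), and with 0.5 it was -0.11 (exact permutation p = 0.6). In whole ovary RNA, fewer granulosa cells and less Fshr RNA per granulosa cell cannot be told apart.

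**Figure D3:**
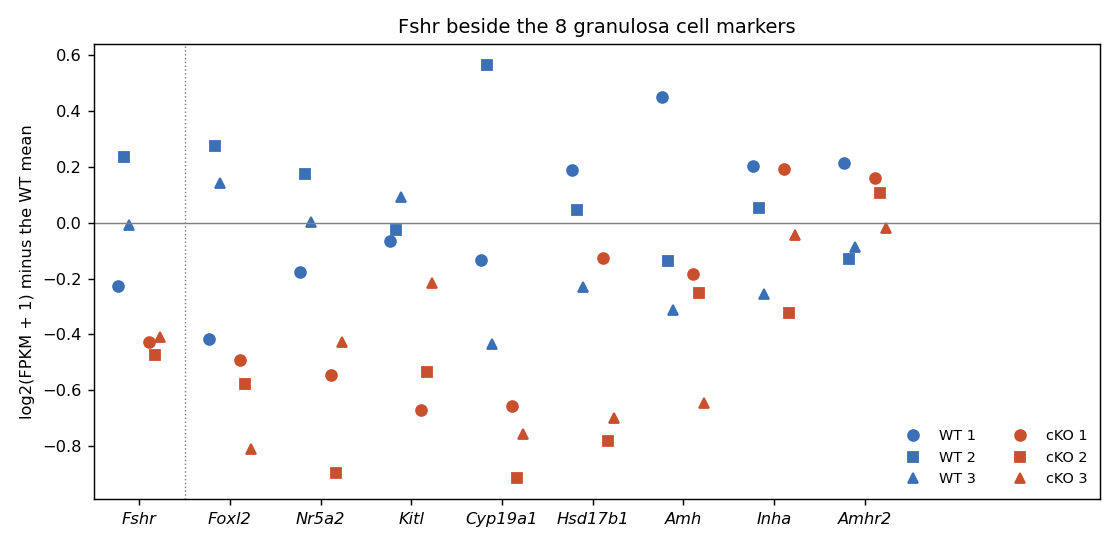
Log2(FPKM + 1) minus the WT mean for Fshr and the 8 granulosa cell markers. Each point is a library, coloured by genotype and marked by replicate number. Fshr, Foxl2, Nr5a2, Kitl and Cyp19a1 have all 3 cKO libraries below all 3 WT libraries, and Hsd17b1, Amh, Inha and Amhr2 overlap.

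Lhcgr (chromosome 17, 89023812 to 89099487, minus strand) varied more between libraries of the same genotype than between genotypes. It stood at 1.33, 0.610 and 1.06 FPKM in WT and at 0.845, 0.399 and 1.03 FPKM in cKO. Replicate 2 was the lowest library in both groups, and the groups overlapped. The means were 1.001 ± 0.365 and 0.758 ± 0.324 FPKM, a log2 difference of -0.19 (exact two-sided permutation p = 0.4). The 58 to 174 reads per library give Poisson 95% intervals of 1.14 to 1.55 FPKM in WT replicate 1 and 0.303 to 0.515 FPKM in cKO replicate 2, so that the spread between libraries was larger than counting error. The theca and interstitial gene Cyp11a1, the enzyme that starts steroid synthesis from cholesterol, was also lowest in WT replicate 2 and cKO replicate 2, at 0.421 and 0.448 FPKM against 0.587 to 0.926 in the other 4 libraries. Cyp17a1, the enzyme of androgen synthesis in theca cells, stood at 0.883, 0.448 and 0.559 FPKM in WT and 0.431, 0.368 and 0.474 in cKO. It too was lowest in replicate 2 of each group. Insl3 went the other way and was highest in those libraries within each group, at 0.375 and 0.798 FPKM. Reads per library were 24 to 50 for Cyp11a1, 13 to 28 for Cyp17a1 and 2 to 9 for Insl3. Counting error is wide at such counts, and the order of the libraries for these genes is not settled. Star was lowest in replicate 3 among WT, at 4.48 FPKM, and in replicate 2 among cKO. The theca marker sum was 5.90 to 7.88 FPKM in WT and 6.37 to 8.62 FPKM in cKO, and its part in the Lhcgr values was not tested.

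Downstream of both gonadotropin receptors, 14 of 15 genes of cyclic AMP signalling were tested. None was called, 6 had a higher and 8 a lower mean log2 value in cKO, and the median log2 difference was -0.02. Arrb2, which encodes a beta-arrestin that uncouples activated receptors, stood at 10.62, 10.5 and 10.3 FPKM in WT and at 15.5, 11.7 and 14.4 in cKO (log2 difference 0.37, SE 0.114, limma adjusted p = 0.743). Grk2, the kinase that marks activated receptors for arrestin, stood at 19.97 ± 0.406 and 22.1 ± 0.779 FPKM, also without overlap (limma adjusted p = 0.801). Arrb2 is also expressed in leukocytes, whose marker sum was 26.3 to 35.6 FPKM in WT and 54.0 to 126 in cKO. The sum was in the same order as Arrb2 over the cKO libraries but not over the WT libraries. There, WT replicate 3 had the highest sum and the lowest Arrb2. The part of leukocytes in the Arrb2 difference was not tested. Prkar2b, a regulatory subunit of protein kinase A, stood at 50.8 ± 9.47 FPKM in WT libraries against 36.0 ± 6.39 in cKO libraries (limma adjusted p = 0.768). Adcy9, an adenylyl cyclase, stood at 5.79 ± 0.518 and 4.42 ± 0.812 FPKM without overlap (limma adjusted p = 0.773).

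Among 10 genes known to respond to FSH or to carry the granulosa cell response, 9 were tested and none was called. The mean log2 value in cKO was lower in 6 and higher in 3, with a median log2 difference of -0.18. The list shares 4 genes with the granulosa cell markers and is not a separate observation. It was not sorted by the direction in which FSH acts on each gene, so these counts do not measure a response to FSH. Cyp19a1, the aromatase that makes oestradiol, stood at 1.76, 3.48 and 1.24 FPKM in WT and 0.922, 0.605 and 0.792 in cKO. WT replicate 2 was highest for both Cyp19a1 and Fshr, and Cyp19a1 too passed the filter through the WT libraries. Nr5a2, the nuclear receptor also called LRH-1, stood at 43.9, 56.4 and 49.9 FPKM in WT and 33.8, 26.3 and 36.8 in cKO (log2 difference -0.62, SE 0.149, limma adjusted p = 0.713). Foxo1, a transcription factor that FSH signalling inactivates, stood at 43.3 ± 10.1 FPKM in WT libraries against 28.7 ± 6.41 in cKO libraries, without overlap (limma adjusted p = 0.768). Inhbb, which encodes the beta B subunit of activin and inhibin, had the higher values in cKO, at 67.4, 49.3 and 45.4 FPKM in WT and 85.6, 67.4 and 76.0 in cKO. WT replicate 1 and cKO replicate 2 were level, so that the groups met (log2 difference 0.50, SE 0.166, limma adjusted p = 0.759). The cell cycle gene Ccnd2 (log2 difference 0.02) and Inha, the inhibin alpha subunit (-0.06), were close to equal between groups.

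Prlr (chromosome 15, 10177324 to 10349276, plus strand) stood at 2.95, 2.27 and 2.81 FPKM in WT and at 2.71, 2.45 and 3.57 in cKO. The groups overlapped, with WT replicate 2 lowest and cKO replicate 3 highest. The log2 difference was 0.08 (95% interval -0.28 to 0.44, limma adjusted p = 0.92). Without cKO replicate 3 it was -0.04 (limma adjusted p = 0.948). The listed genes most like Prlr over the 6 libraries were Upk3b, of the ovarian surface (r = 0.88), and the globin gene Hbb-bs (r = 0.87), both highest in cKO replicate 3.

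Ghr (chromosome 15, 3347237 to 3612834, minus strand) stood at 11.1, 14.0 and 16.6 FPKM in WT and at 11.2, 14.4 and 14.6 in cKO. Replicate 1 was the lowest library in both groups, at nearly the same level. The log2 difference was -0.04 (95% interval -0.43 to 0.35, limma adjusted p = 0.97). Without WT replicate 3 it was 0.09, and without cKO replicate 1 it was 0.07. The stromal matrix gene Lum was the listed gene most like Ghr (r = 0.92 over 6 libraries), followed by Irs1, an adaptor of insulin and IGF receptors (r = 0.87). Lum stood at 113, 127 and 188 FPKM in WT and 121, 159 and 160 in cKO.

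All 10 genes of the JAK-STAT list were tested, and none was called or had an unadjusted limma p under 0.05. Jak2 (log2 difference -0.11), Stat5a (0.10) and Stat5b (-0.02), which carry the signal of both receptors, lay within 0.12 of equality. Socs2 and Cish, feedback inhibitors induced through STAT5, had log2 differences of -0.12 and 0.21. For the inhibitors Socs1 and Socs3 they were 0.26 and 0.19, with overlapping libraries.

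Igf1 (chromosome 10, 87694127 to 87772909, plus strand) stood at 31.1, 37.0 and 44.3 FPKM in WT and at 33.9, 47.5 and 48.2 in cKO. Replicate 1 was lowest in both groups, as for Ghr, and the groups overlapped. The log2 difference was 0.20 (95% interval -0.23 to 0.62, limma adjusted p = 0.861). The interval is wide, so that neither direction was settled for this ligand. Over the 6 libraries Igf1 was most like Lum and Prkar1a, a regulatory subunit of protein kinase A (r = 0.89 for each). Macrophages also express Igf1, and the macrophage and leukocyte sum was highest in cKO replicate 1, where Igf1 was the lowest of the cKO libraries. The part of macrophages in the Igf1 values was not tested.

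Igf1r (chromosome 7, 67601486 to 67883416, plus strand) stood at 16.6, 17.9 and 12.8 FPKM in WT and at 14.7, 8.18 and 17.2 in cKO. The group difference rested on cKO replicate 2, which was the lowest of all libraries, while cKO replicate 3 lay next to the highest. The log2 difference was -0.27 (95% interval -0.89 to 0.35, limma adjusted p = 0.865), and without cKO replicate 2 it was 0.02 (limma adjusted p = 0.989). The listed genes most like it were Irs2, an adaptor of both IGF and insulin receptors (r = 0.98), and Ncoa2, a nuclear receptor coactivator (r = 0.98). Irs2 stood at 7.01, 7.25 and 5.68 FPKM in WT and 6.997, 4.34 and 7.04 in cKO, lowest in the same pair of libraries as Igf1r.

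Insr (chromosome 8, 3200922 to 3329649, minus strand) was the steadiest of the 8 genes, with 11.5, 12.5 and 11.1 FPKM in WT and 11.7, 10.3 and 13.4 in cKO. Its highest library was 1.29 times its lowest, and its profile was most like those of the coactivator gene Ncoa1 (r = 0.94) and of Ccnd2 (r = 0.92). The log2 difference was 0.01 (95% interval -0.26 to 0.27, limma adjusted p = 0.993). Igf1r was more abundant per base of length than Insr in 5 of the 6 libraries, with ratios of 1.44, 1.43 and 1.16 in WT and 1.25, 0.791 and 1.29 in cKO. The ratio did not differ between groups beyond their spread (exact two-sided permutation p = 0.3).

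Igf1r (12973 bases) and Insr (9423 bases) are long genes, and both were lowest in cKO replicate 2, as were 54.8% of all tested genes of at least 8 kb. When the log2 values were centred within 4 classes of gene length, an alternative chosen after seeing this trend, Insr in cKO replicate 2 moved from -0.17 to -0.02 relative to its 6-library mean. Igf1r in that library moved from -0.72 to -0.57 and remained the lowest. The log2 difference of Igf1r between genotypes became -0.18 (limma adjusted p = 0.913), that of Insr 0.09 (limma adjusted p = 0.865) and that of Fshr, a gene of 2360 bases, -0.46 (limma adjusted p = 0.747). For the long genes Prlr and Igf1 it became 0.17 (limma adjusted p = 0.876) and 0.28 (limma adjusted p = 0.836). Pgr lay below the filter and was not part of that fit.

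**Figure D4:**
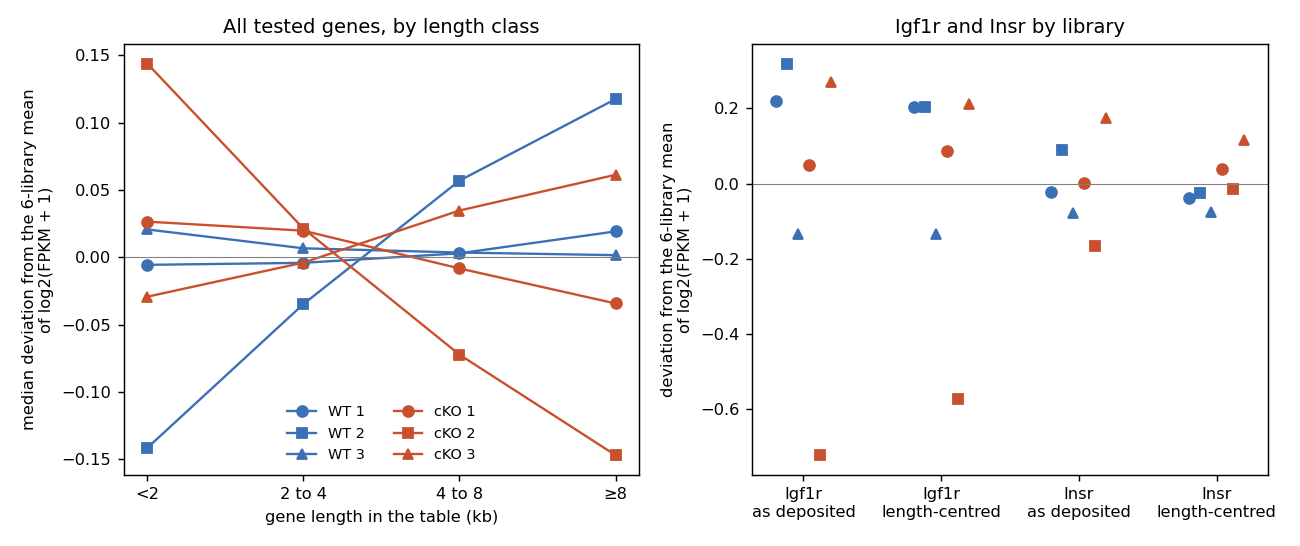
Left, the median deviation of log2(FPKM + 1) from the 6-library mean for tested genes in 4 length classes, a line per library. Right, the deviations of Igf1r and Insr in each library as deposited and after centring within length classes. Genes of at least 8 kb sit at -0.15 in cKO replicate 2, and Igf1r stays low there after centring, at -0.57, while Insr does not.

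In the rest of the IGF axis, 12 of 19 genes were tested and none was called. The mean log2 value in cKO was higher in 7 and lower in 5, with a median log2 difference of 0.20. The binding proteins of IGFs, which hold the ligand away from its receptor or carry it, were 5 of the 7 with a higher mean. Igfbp3 stood at 30.2, 28.3 and 31.9 FPKM in WT and 39.5, 42.6 and 47.5 in cKO, without overlap (log2 difference 0.50, SE 0.099, limma unadjusted p = 0.00142, adjusted p = 0.613). Of the 64 tested pathway genes it had the smallest p. Igfbp2 stood at 45.3, 30.2 and 44.9 FPKM in WT and 47.2, 57.5 and 59.3 in cKO (limma adjusted p = 0.771), with a narrow gap. Igf2, the fetal growth ligand, stood at 11.7, 10.64 and 11.6 FPKM in WT and 13.3, 12.2 and 22.6 in cKO (limma adjusted p = 0.798). Stc1, which encodes a stanniocalcin that inhibits the protease PAPPA, stood at 6.35 ± 1.81 and 4.26 ± 0.801 FPKM (limma adjusted p = 0.773). The other stanniocalcin gene of the list, Stc2, went the other way. Its means were 6.12 FPKM in WT and 8.30 in cKO, with overlapping libraries (log2 difference 0.38, limma adjusted p = 0.798). Pappa, which frees IGFs by cutting their binding proteins, and the insulin genes Ins1 and Ins2 lay below the filter, with means of 0.786, 0.256 and 0.942 FPKM. The endothelial marker sum was 93.9 to 98.6 FPKM in WT and 104 to 114 in cKO, and the ovarian surface sum was 104 to 125 and 152 to 192 FPKM. Their part in the binding protein values was not tested.

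Pgr (chromosome 9, 8890017 to 8968612, plus strand) had the lowest mean of the 8 genes at the table's length. It did not when the same reads were divided by the GENCODE length. Pgr stood at 0.320, 0.452 and 0.690 FPKM in WT and 0.315, 1.01 and 0.522 in cKO. cKO replicate 2 was the highest library and cKO replicate 1 the lowest, so that the cKO libraries enclosed all WT values. The means were 0.487 ± 0.187 and 0.617 ± 0.359 FPKM, a log2 difference of 0.10 (exact two-sided permutation p = 0.7). Without cKO replicate 2 it was -0.07 (exact permutation p = 0.7). With 151 to 533 reads per library the highest and lowest values lay far outside each other's Poisson intervals (0.929 to 1.10 and 0.268 to 0.367 FPKM). The order of the libraries for Pgr had cKO replicate 2 and WT replicate 3 on top, and the smooth muscle marker sum was 151 and 148 FPKM in these and 59.4 to 93.7 in the other 4. The oviduct marker sum was also highest in cKO replicate 2, at 43.4 FPKM against 20.2 to 30.3 elsewhere, and Ovgp1, the oviductin gene, stood there at 2.23 FPKM against 0.23 to 0.90. Pgr is expressed in muscle and epithelium of the reproductive tract, and the part of such cells in its values was not tested.

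Of 8 genes that the progesterone receptor drives in the periovulatory follicle, 4 were tested, none was called, and 2 were on each side of equality. Cited2 stood at 18.2 ± 2.08 and 16.6 ± 0.652 FPKM (limma adjusted p = 0.849), and Adamts1, a protease of the ovulating follicle, at 10.1 ± 2.97 and 10.7 ± 1.14 FPKM (limma adjusted p = 0.914). The log2 differences of Pparg and Hif1a, transcription factor genes, were -0.20 and 0.03. Edn2 and Snap25, induced at ovulation, lay below the filter at means of 0.520 and 0.138 FPKM.

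Of 10 other steroid receptor and progesterone-binding protein genes, 9 were tested. None was called, 7 had a lower and 2 a higher mean log2 value in cKO, and the median log2 difference was -0.13. After centring within length classes this median was -0.06. Esr2, the oestrogen receptor of granulosa cells, stood at 32.2, 41.1 and 29.4 FPKM in WT and 28.2, 18.1 and 23.7 in cKO, without overlap (log2 difference -0.54, SE 0.186, limma adjusted p = 0.761). Like Fshr and Cyp19a1, Esr2 was highest in WT replicate 2 and lowest in cKO replicate 2. The 40, 38 and 40 reads of Fshr in cKO do not settle its lowest library. Of the 64 tested pathway genes, WT replicate 2 was highest for 18 and lowest for 11. For the same genes cKO replicate 2 was lowest for 32 and highest for 9. Esr1, the oestrogen receptor of theca and stroma, overlapped between groups, at 14.6 to 16.2 and 10.1 to 22.6 FPKM (log2 difference -0.09). Nr3c2, the mineralocorticoid receptor, stood at 1.27 ± 0.133 and 0.912 ± 0.297 FPKM without overlap (limma adjusted p = 0.827), and it passed the filter through the WT libraries. Nr3c1, the glucocorticoid receptor, stood at 13.8 ± 1.25 and 12.5 ± 1.71 FPKM (limma adjusted p = 0.862). All 6 coregulators of nuclear receptors were tested and none was called, with 5 lower and 1 higher in mean log2 value and a smallest limma adjusted p of 0.844.

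Over all 7 lists, 0 of 64 tested genes were called. At an unadjusted limma p under 0.05 there were 4 higher and 8 lower in cKO, where 3.64% and 2.70% of all tested genes were. The cKO libraries lay wholly above WT for 6 of the 64 genes and wholly below for 8, where 6.37% and 5.89% of all tested genes did. The lists were chosen with earlier results of these data known, so the shares over all genes are given for scale only. Of the genes lower at an unadjusted p under 0.05, Nr5a2, Cyp19a1 and Hsd17b1 are also granulosa cell markers. Cyp19a1, and Nr3c2 among the genes wholly below, passed the filter through the WT libraries. cKO replicate 2 was the lowest library for 32 of the 64 genes, against 27.3% of all tested genes and 54.8% of those of at least 8 kb. The 64 genes were not matched to all tested genes by length. After centring within length classes Adcy9 no longer had an unadjusted p under 0.05 (limma unadjusted p = 0.0649), and Stc1 had one (limma unadjusted p = 0.049). The same centring changed the counts higher and lower in cKO from 6 and 8 to 8 and 6 for cyclic AMP signalling. For JAK-STAT genes they went from 6 and 4 to 8 and 2, and for coregulators from 1 and 5 to 2 and 4. Steroid receptors stayed at 2 and 7. The FSH-responsive genes went from 3 and 6 to 2 and 7, and the IGF axis from 7 and 5 to 9 and 3. Targets of the progesterone receptor stayed at 2 and 2.

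**Figure D5:**
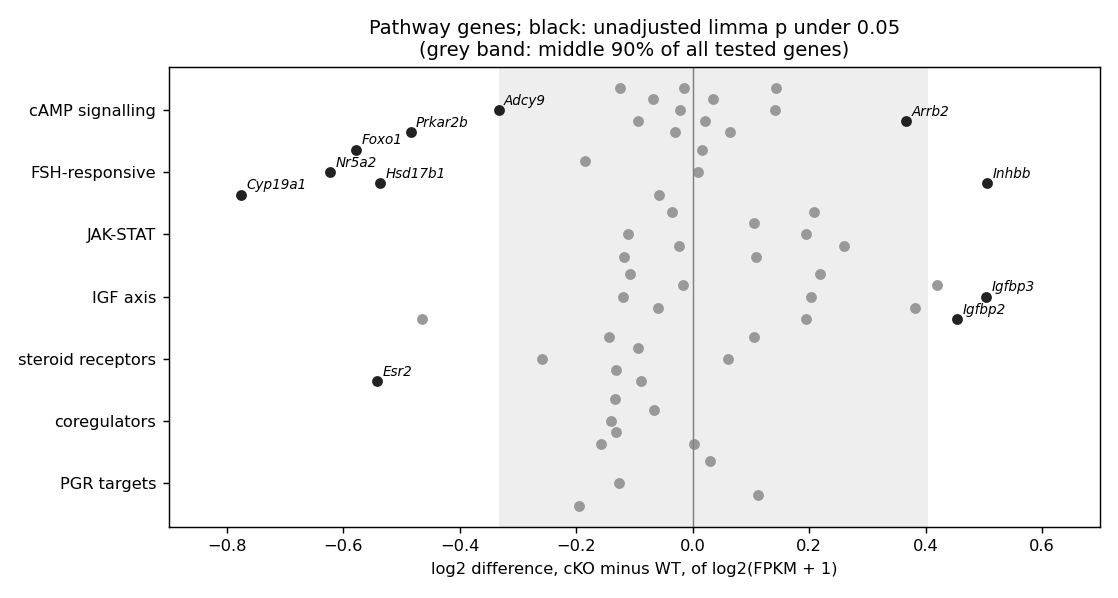
Log2 difference, cKO minus WT, of tested genes of the 7 pathway lists, without those not reported here. Black points had an unadjusted limma p under 0.05, and the grey band from -0.33 to 0.40 holds the middle 90% of all tested genes. Cyp19a1, Nr5a2, Foxo1, Hsd17b1 and Esr2 lie at the lower end, and Igfbp3, Inhbb, Igfbp2 and Igf2 lie above the band.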

How the data were processed

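Whole ovaries at 9 dpp were profiled by RNA sequencing, with 3 WT and 3 cKO libraries grouped by their labels. The deposited table holds FPKM that the authors computed per gene; HISAT2 2.0.5 and the builds mm10 and GRCm39 are named in the submitters' processing notes, and the sources used here do not give the counting tool. All values (100%, within 0.01 of a whole number) came back to whole reads, 16840923 to 18721895 per library, once the scaling of each library was recovered from the low values, so that the FPKM carry a median-of-ratios scaling rather than each library's own total. Table rows whose gene name was blank (a dash) were kept in the fit and never named.

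Differences were tested by limma 3.58.1 (R 4.3.3) on log2(FPKM + 1) for genes averaging 1 FPKM or more, with Benjamini-Hochberg adjustment over all 14714 genes and a threshold of 0.05. Genes below the filter and ratios were tested by exact permutation over the 6 libraries (Python 3.11.15, scipy 1.17.1, pandas 2.3.3). The fit was tested on simulated data. The members and the gene lists were chosen with earlier results of these data known. Named were the 8 members, Srsf1 and Foxl2, up to 4 genes of each pathway list with the smallest unadjusted p, marker genes needed beside a result, and for each tested member the 2 listed genes with the highest Pearson r. Jak2, Stat5a, Stat5b, Socs2, Ccnd2, Inha, Esr1, Pappa, Stc2, Ins1, Ins2, Edn2 and Snap25 were added for their roles with their values already known. Some genes of the lists are counted but not reported by name here. Alternatives were other pseudocounts, filters, scalings and variance models, limma-voom on the recovered reads, a replicate block and leaving out each library; centring within length classes was added after seeing the data. Promoter windows were taken from RefSeq (GRCm38.p6).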

Additional observations from a re-analysis of the deposited data

How the results depend on the processing

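Under 21 alternative settings, of which 6 left out a library each, none of the 8 genes that was tested by limma passed the adjusted threshold. Lhcgr and Pgr were tested by limma only without a filter and with a filter at a mean of 0.1 FPKM. Fshr stayed lower in cKO in the 20 settings that tested it. The log2 difference was -0.80 (limma-voom on recovered reads) to -0.42 with all libraries and -0.55 to -0.32 without a library. The unadjusted limma p of Fshr was under 0.05 in 14 of the 20 (0.0142 to 0.115). When a library was left out, it was under 0.05 only without WT replicate 1 (0.0192). It was 0.115 and 0.0744 without WT replicates 2 and 3. Without cKO replicates 1, 2 and 3 it was 0.0671, 0.0692 and 0.0649. A filter at a mean of 5 FPKM left Fshr and Prlr untested. Scaling to a common total brought Insr to -0.052. Leaving out each library gave log2 differences of -0.34 to -0.032 for Lhcgr, -0.036 to 0.17 for Prlr, -0.18 to 0.085 for Ghr, 0.073 to 0.36 for Igf1, -0.47 to 0.024 for Igf1r, -0.079 to 0.092 for Insr and -0.065 to 0.24 for Pgr. Fshr relative to the granulosa cell markers ranged from -0.15 to 0.051 in the same way. Replicate numbers did not pair the libraries (correlations of deviations 0.18, -0.08 and -0.06), and 2 of 6 libraries correlated best with their own number. With a replicate block the log2 difference of Fshr was -0.44 (limma unadjusted p = 0.0559, adjusted p = 0.82). Counting error is wide for Fshr, which had 38 to 86 reads per library. The cause of these shifts was not tested.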
